A study of Rattus norvegicus with 8 samples.

Results

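Kinesins, dyneins and their partner dynactin are the motor proteins that haul cargo along microtubules, and their transcripts were compared between motoneurons of newborn and juvenile rats. The members were all probe sets, on the rat array, whose single annotated symbol starts with Kif, Klc, Dync or Dctn and a number, or with Dynl, further letters and a number. This rule took 83 of 31042 probe sets, which stand for 52 genes. Of them 63 probe sets, for 47 genes, passed the filter on dim values and were tested, and 20 did not pass it. A further 6 probe sets with a motor symbol among several symbols were outside the rule.

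The cells were spinal motoneurons of unmodified Wistar albino rats, cut by laser from cresyl violet stained lumbar cord. They came from rats aged 1 day (P1), when myelin is being laid down, and 21 days (P21), when that process is complete. Each age had 4 arrays, numbered as replicates 1 to 4 in the labels, and each array carried amplified RNA of 1500 to 2000 captured cells pooled from 4 rats, so a value is the mean of a pool. Values are the intensities the authors deposited, on a linear scale, and are given in the order of replicates 1 to 4.

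Motor proteins divide the work by direction. Most kinesins walk to the plus ends of microtubules and carry vesicles, mitochondria and other cargo from the cell body down the axon, whereas cytoplasmic dynein, activated by dynactin, brings endosomes and signals back. Motoneurons, with some of the longest axons of the body, depend heavily on both, and mutations of several motor genes cause motor and sensory neuropathies in people. Another set of kinesins builds and pulls on the mitotic spindle, and dynein-2 works inside cilia.

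Of 5 motoneuron markers Chat, Slc18a3, Slc5a7 and Prph lay above the filter level on all 8 arrays. Chat, which makes acetylcholine, rose (1.32 ± 0.14, adjusted p = 8.66e-05). Isl1, a transcription factor of young motoneurons, fell (-1.67 ± 0.24, adjusted p = 0.000491) and lay above that level on 4 P1 arrays and 1 P21 array. The changes of Slc18a3 (-0.15 ± 0.20), Slc5a7 (0.09 ± 0.10) and Prph (0.07 ± 0.09) were not called. Markers of other cells were also measured. Of 14 tested probe sets for 8 of 9 fixed oligodendrocyte genes 12 rose and 0 fell, and the intensity summed over the genes was 7112 to 9124 on the P1 arrays and 30821 to 33445 on the P21 arrays. Every P1 value of Mobp, Mog and Opalin, and of the called Ermn probe sets, was under the filter level, so these passed it only through P21. Of 10 tested probe sets for 8 astrocyte genes 7 rose and 2 fell, with sums of 13910 to 15405 and of 21391 to 24971. Of the tested probe sets of erythrocyte genes 2 of 3 rose (sums 2535 to 8241 and 8699 to 12425), of endothelial genes 4 of 7 rose, of microglial genes 3 of 6 rose and 1 fell, and of interneuron genes 1 of 5 rose and 2 fell. The microglial gene Cd74 and 1 called probe set of the astrocyte gene Aqp4 also passed the filter only through P21. Cd53, the microglial fall, passed only through P1. Over all tested probe sets 20.8% rose and 17.4% fell. In these bulk pools a change in the number of cells of a type cannot be told apart from a change in RNA per cell, and the part of other cells in the results below was not tested, except where a value is given.

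Changes are differences of log2(intensity + 16), P21 minus P1, written ± the standard error, with n = 4 arrays at each age, while intensities written with ± are the mean and SD of the 4 arrays. P-values are from limma, adjusted by the Benjamini-Hochberg method over all 19155 tested probe sets. A probe set counts as called, and is said to have risen or fallen, where its adjusted p is under 0.05. Of the 63 tested motor probe sets 21 were called, which is 33.3%, against 38.3% of all tested probe sets. They comprised 12 rises (19% of the 63, against 20.8% of all) and 9 falls (14.3%, against 17.4% of all). The median change of the motor probe sets was 0.04, and that of all tested probe sets 0.07. With each array centred on its median, which moved the median of all probe sets to -0.07, the split was 7 rises and 11 falls, and with quantile normalization 11 and 11.

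A fitted change of at least 2-fold was called in 8 motor probe sets (12.7%, against 10% of all tested probe sets). These were rises of Kif1a, Kif16b and Kif22 and falls of Kif26b (3 probe sets), Dynlt1 and Dync2i2. For Kif16b and 1 of the Kif26b probe sets, which passed the filter only through their brighter age, the intensities show only changes of at least 1.38-fold and at least 1.65-fold. In 20 of the 63 all 4 intensities at one age lay to one side of the 4 at the other (31.7%, against 38% of all tested). With the replicate block, which compares arrays of the same number, 22 of the 63 were called (34.9%), against 46% of all tested.

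**Figure D1:**
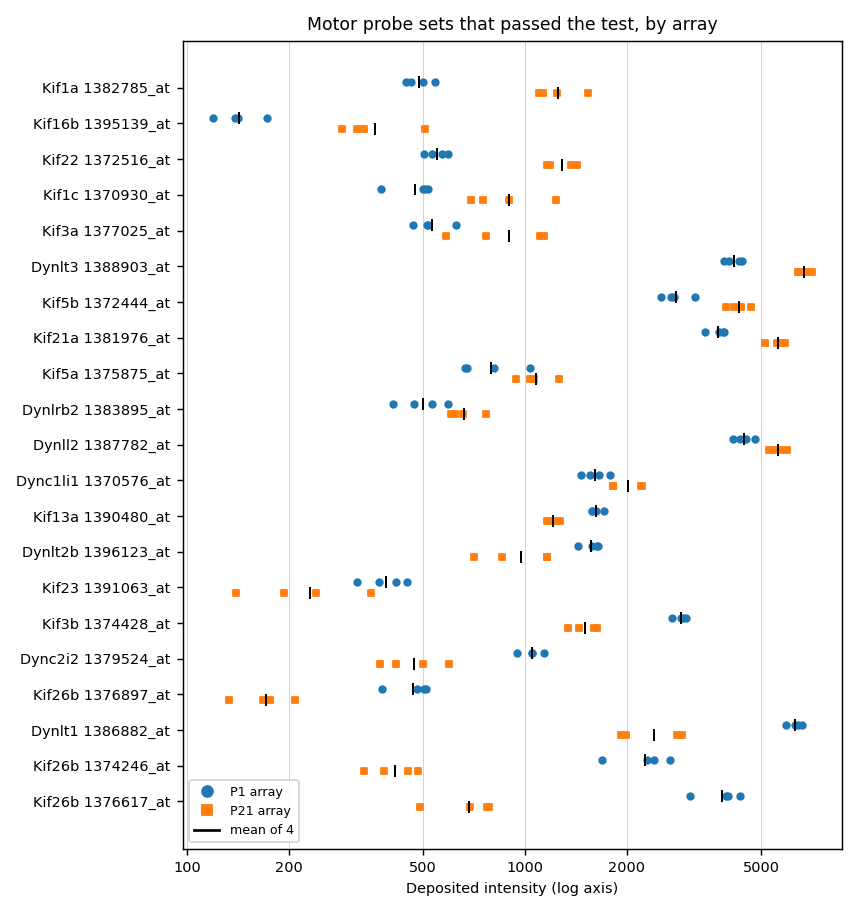
Deposited intensity (log axis) of the 21 motor probe sets that passed limma's test, on each P1 array (circles) and P21 array (squares), with the mean of the 4 arrays as a black bar. The rows run from the largest rise, Kif1a, to the largest fall, a probe set of Kif26b.

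Kinesin-1 is the main anterograde motor of the axon. It is built from the heavy chains encoded by Kif5a, Kif5b and Kif5c, of which Kif5a and Kif5c are mostly neuronal and Kif5b is found in all tissues, and from light chains of the Klc genes, which bind cargo. Kif5b rose. Its probe set of highest mean, 1372444_at, read 2519.8, 3181, 2759 and 2709 at P1 and 4668, 3944, 4369.6 and 4162 at P21, so the groups did not overlap, a change of 0.62 ± 0.10 or 1.53-fold (adjusted p = 0.00113). The other kept probe set of Kif5b had a change of 0.26 ± 0.10 that was not called (adjusted p = 0.0773), though it too read higher on each P21 array than on any P1 array. Without P21 replicate 2 that probe set was called as well (adjusted p = 0.0406).

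The neuronal heavy chains were not called on their probe sets of highest mean. Kif5c read 8028, 7552, 7486 and 7888 at P1 and 7874, 8352, 8155 and 8062 at P21. The ages overlapped, and the 95% interval of the change was -0.11 to 0.24. These intensities lay above those of 99.4% of the probe sets on each array, and whether the scale is compressed at such levels was not tested. Kif5a, whose human counterpart is mutated in hereditary spastic paraplegia and in amyotrophic lateral sclerosis, read 4506, 3691, 4905 and 4754 at P1 and 4136, 3798, 4698 and 3254 at P21 on 1373187_at, with a change of -0.17 ± 0.14 (95% interval -0.48 to 0.13). A second probe set of Kif5a, 1375875_at, rose by 0.44 ± 0.15 with overlapping groups, 1035, 810.0, 667 and 672 at P1 and 1261, 1061, 943 and 1036 at P21. Its adjusted p of 0.0476 was close to the threshold. That call was lost without P1 replicate 2 (0.0688), 3 (0.123) or 4 (0.126), without P21 replicate 1 (0.12), 2 (0.0891) or 4 (0.0768), and with centred arrays (0.121).

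No single probe set of a kinesin light chain was called. Of 8 Klc probe sets for 4 genes, 6 were tested, and limma called 0 after adjustment, against 38.3% of all tested. Without adjustment 2 had a p under 0.05. Changes ran from -0.19 for Klc3 to 0.35 for a probe set of Klc1, with a median of 0.19. Klc1, the main neuronal light chain, read 7527, 7506, 7738 and 7675 at P1 and 8146, 7915, 7894 and 7383 at P21 on its probe set of highest mean (95% interval of the change -0.14 to 0.22). Its probe set 1388125_a_at, with a change of 0.35 ± 0.15, was called only without P1 replicate 2 (adjusted p = 0.0176) and with array weights (0.0325). The mean of the 3 tested probe sets of Klc1 was called a rise (0.23 ± 0.07, adjusted p = 0.0319). Klc2 read 2982, 2655, 3368 and 3131 at P1 and 3266, 3351, 4059 and 3154 at P21, with a change of 0.19 ± 0.11 and groups that overlapped.

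The kinesin-3 motors, which carry vesicle precursors and endosomes, went both ways. Kif1a takes precursors of synaptic vesicles and dense core vesicles down the axon. Its probe set 1382785_at read 542, 501, 459 and 444 at P1 and 1131, 1100.0, 1241 and 1535 at P21, so that every P21 array was above every P1 array, and it rose 2.51-fold (1.33 ± 0.12, adjusted p = 3.67e-05). The Kif1a probe set of highest mean, 1384133_at, read 4467, 4278, 3648 and 3658 at P1 and 4726, 4551, 4811 and 4477 at P21, with a change of 0.21 ± 0.10 that was not called (adjusted p = 0.115) and was called with array weights (0.0347). Kif1c, known for transport between Golgi and endoplasmic reticulum and of integrin vesicles, rose from 474 ± 67 at P1 to 896 ± 245 at P21 (0.87 ± 0.18, adjusted p = 0.00459). On the single arrays Kif1c read 518, 505, 498 and 374 at P1 and 1239.5, 897, 754 and 693 at P21, with no overlap but a wide spread at P21.

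Kif16b, a motor of early endosomes, rose on 1 of 3 kept probe sets. That one, 1395139_at, read 142, 172, 119 and 139 at P1 and 288, 318, 333 and 505 at P21. All 4 of its P1 intensities lay under the filter level, so the fitted change of 1.22 ± 0.17 is given as a rise of at least 1.38-fold. The other 2 had changes of 0.36 ± 0.24 and 0.02 ± 0.17 and were not called. Kif13a, which carries endosomes and the mannose-6-phosphate receptor, fell. Its tested probe set read 1714, 1618, 1578 and 1579.8 at P1 and 1222, 1267, 1163 and 1183 at P21, a change of -0.42 ± 0.08 (adjusted p = 0.00282). Kif1b, a carrier of mitochondria and vesicle precursors, read 889.9, 948, 570.3 and 720.3 at P1 and 807, 774, 736 and 845 at P21 on its single tested probe set, with a change of 0.04 ± 0.15 that was not called. Of 3 tested probe sets annotated to Kif1b together with Cenps, Pgd and Cort, 1 rose by 0.55 ± 0.09 (adjusted p = 0.00115), another by 0.46 ± 0.16 (adjusted p = 0.0469), and the last had a change of 0.08 ± 0.13. Which of the 4 genes these read was not analysed here.

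Kinesin-2 is a trimer of Kif3a with Kif3b or Kif3c and an accessory subunit, and serves axonal vesicles as well as cilia. Its heavy chain gene Kif3b fell from 2887 ± 119 at P1 to 1505 ± 140.4 at P21 (-0.94 ± 0.10, 1.91-fold lower, adjusted p = 6.12e-05). On the arrays it read 2894, 2723, 3002 and 2930.3 at P1 and 1444, 1337, 1635 and 1606 at P21, with no overlap. Its partner Kif3a read 3147, 2570.0, 3270.4 and 2761 at P1 and 2736, 2383, 2630.3 and 2146 at P21 on the probe set of highest mean, with overlapping groups and a change of -0.25 ± 0.12 (adjusted p = 0.128, and 0.0471, a fall, with the replicate block). Another probe set of Kif3a, 1377025_at, rose by 0.70 ± 0.21, reading 466, 512, 517 and 624 at P1 and 586, 766, 1111 and 1136 at P21. Its groups overlapped, its P21 values fell into a lower and a higher pair, and its call (adjusted p = 0.023) was lost without P1 replicate 1 (0.0584), P21 replicate 3 (0.0598) or P21 replicate 4 (0.0585) and with centred arrays (0.052). Kif3c, the neuronal alternative to Kif3b, read 2801, 2798, 2983 and 2925 at P1 and 2873, 2571, 3247 and 3066 at P21, with a 95% interval of -0.19 to 0.24.

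Kif21a, a kinesin-4 motor that restrains microtubule growth and is mutated in people with congenital fibrosis of the extraocular muscles, rose. It read 3845, 3890.3, 3748 and 3412 at P1 and 5895, 5574, 5818 and 5121 at P21, so the lowest P21 value was above the highest P1 value, a change of 0.59 ± 0.09 or 1.5-fold (adjusted p = 0.00073). Over the 19 tested probe sets of the 12 transport kinesins, 7 rose (36.8%, against 20.8% of all tested), 2 fell (10.5%, against 17.4%) and 10 were not called, with a median change of 0.24. With 1 probe set a gene, the one of highest mean, 3 genes rose (Kif1c, Kif5b and Kif21a) and 2 fell (Kif3b and Kif13a), and the median was 0.05, equal to that of all genes so treated. With the mean of the tested probe sets of each gene, Kif1a (0.77 ± 0.10, adjusted p = 0.000194) and Kif16b (0.53 ± 0.15, adjusted p = 0.0169) rose too, making 5 rises, and the same 2 genes fell. The Kif16b mean holds 1395139_at at its full fitted change, though every P1 value of that probe set lay under the filter level. The size and call for Kif16b therefore rest in part on values under that level. That probe set is also 1 of the 7 rises above.

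The promoter of Kif1a is shown because its probe set 1382785_at had the largest rise among transport kinesin probe sets. With the mean of the tested probe sets of a gene, Kif1c had the larger change (0.87, against 0.77 for Kif1a). With 1 probe set a gene Kif1a was not called. The Kif1a window, of 250 bases before to 50 after the RefSeq start (chr9:101094728-101095027, minus strand, GRCr8), has in capitals the letters GGGCGG, the core of the GC box, searched on both strands with no overlap with the other motifs searched.
Kif1a: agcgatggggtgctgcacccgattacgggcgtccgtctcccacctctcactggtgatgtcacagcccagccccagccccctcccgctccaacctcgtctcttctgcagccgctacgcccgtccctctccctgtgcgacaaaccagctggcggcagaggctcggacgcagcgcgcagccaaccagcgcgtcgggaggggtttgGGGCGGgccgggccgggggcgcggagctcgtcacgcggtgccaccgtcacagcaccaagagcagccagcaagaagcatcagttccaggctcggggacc
GGGCGG was found on either strand in 11 of the 11 transport kinesin promoters in that table, 5 of 5 of dynein-1 chains, 3 of 4 of kinesin light chains, 3 of 4 of other kinesins, 6 of 9 of mitotic kinesins, 2 of 4 of dynein light chains, 0 of 3 of dynein-2 and 0 of 4 of dynactin. The share over all 33469 windows of the same length was 33.1%. GC content was not matched between these, and a match describes letters only.

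**Figure D2:**
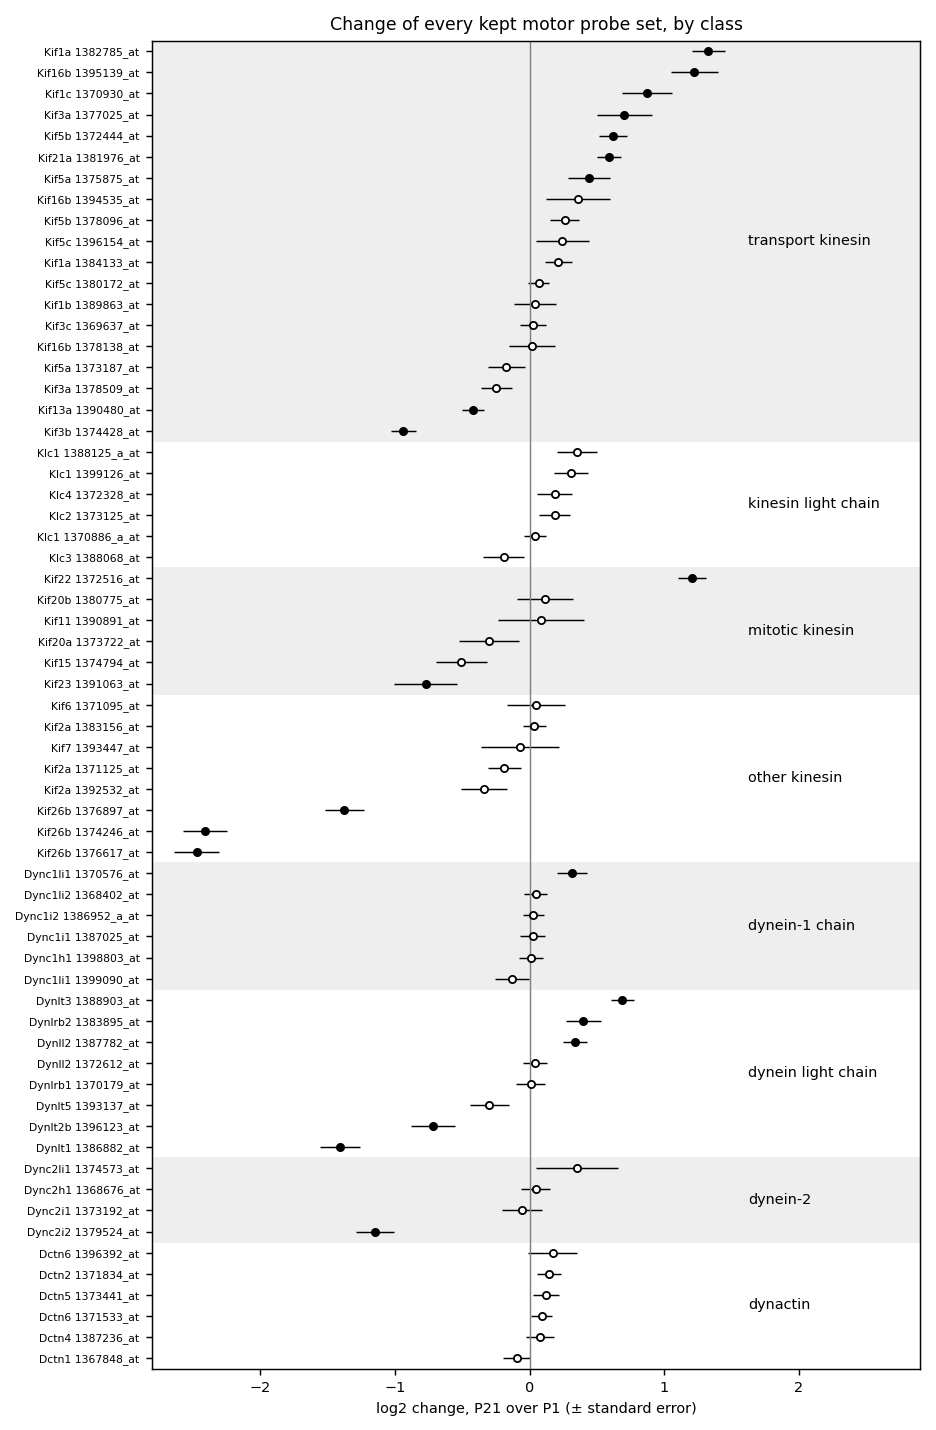
The log2 change, P21 over P1, with its standard error for each of the 63 tested motor probe sets, ordered within 8 classes, where filled points passed limma's test (adjusted p under 0.05). Transport kinesins spread on both sides of 0, dynactin subunits lay between -0.10 and 0.17, and the largest falls were those of Kif26b.

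The largest change of any motor transcript was the fall of Kif26b, an unconventional kinesin known from kidney development and Wnt5a-Ror signalling. Its probe set of highest mean, 1376617_at, read 4322, 3076, 3930.1 and 3975 at P1 and 769.9, 491, 689.6 and 782 at P21, a fall of 5.54-fold (-2.47 ± 0.17, adjusted p = 5e-06). A second, 1374246_at, read 2680.2, 1693, 2413 and 2290.1 at P1 and 383, 333, 452 and 484 at P21 and fell 5.3-fold (-2.41 ± 0.16). The third, 1376897_at, read 509, 481, 377 and 503 at P1 and 209, 133, 168 and 176 at P21. It fell by at least 1.65-fold, all 4 of its P21 intensities being under the filter level, and the fourth was not tested. On the first 2 probe sets no P21 value reached any P1 value.

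Kif2a, which takes microtubules apart at their ends and limits the growth of axon branches, was not called on any of 3 tested probe sets. Its probe set of highest mean read 2558, 2528, 2696 and 2838 at P1 and 2641, 2628, 2929.6 and 2691 at P21 (95% interval of the change -0.16 to 0.23), and the other 2 had changes of -0.19 ± 0.12 and -0.34 ± 0.17. The last of these was called a fall with the replicate block (adjusted p = 0.0455). Kif7, a regulator of hedgehog signalling at the tip of the cilium, and Kif6 were not called, with changes of -0.07 ± 0.29 and 0.05 ± 0.22.

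Cytoplasmic dynein-1 is the retrograde motor. Among its core chains 1 of 6 tested probe sets, for 5 genes, was called (16.7%, against 38.3% of all tested), and the changes ran from -0.13 to 0.31. The heavy chain gene Dync1h1, which holds the motor domain, read 4784, 4582, 4850.0 and 4884 at P1 and 4493, 4836, 5345 and 4627 at P21. The ages overlapped, with a change of 0.01 ± 0.09 and a 95% interval of -0.19 to 0.21. The neuronal intermediate chain Dync1i1, which links dynein to dynactin, read 5888, 5351, 6321 and 6050.4 at P1 and 5717, 6205, 6375 and 5688 at P21 (95% interval -0.18 to 0.23), and Dync1i2 read 4780.4, 4807, 4806 and 4924 at P1 and 5001, 4690.1, 5102 and 4916 at P21 (95% interval -0.15 to 0.20). The call was that of a probe set of the light intermediate chain Dync1li1, 1785, 1469.9, 1651 and 1559 at P1 and 1823, 1819, 2203 and 2228 at P21 (0.31 ± 0.11, adjusted p = 0.0468). It was lost without P1 replicate 2 (0.0996), 3 (0.0825) or 4 (0.11), without P21 replicate 3 (0.11) or 4 (0.115) and with centred arrays (0.353), and the other probe set of the gene, of higher mean, had a change of -0.13 ± 0.12.

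Dynactin, the complex that activates dynein and ties it to cargo, had no called subunit. Limma called 0 of 6 tested probe sets for 5 genes, against 38.3% of all tested, and 0 had an unadjusted p under 0.05. Dctn1, the p150Glued arm that grips the microtubule, read 4968, 4713, 5325 and 5335 at P1 and 4400.1, 4324, 5281 and 5068 at P21 (95% interval -0.32 to 0.13). Dctn2, the dynamitin subunit, read 4242, 4364, 4526 and 4575 at P1 and 4383, 4906, 5119.6 and 5211 at P21 (95% interval -0.06 to 0.35). The groups overlapped in both, and Dctn4, Dctn5 and Dctn6 had changes between 0.08 and 0.17. A probe set annotated to Dctn3 together with Dctn3l1, outside the rule, had a change of -0.09 ± 0.10. It was not called (adjusted p = 0.54).

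The light chains of dynein held calls in both directions. They dimerise at the base of the motor and some bind cargo. Of 8 tested probe sets for 7 genes, 3 rose (37.5%, against 20.8% of all tested), 2 fell (25%, against 17.4%) and 3 were not called. The class was set by symbol, so 1 of the 2 falls is that of Dynlt2b, a light chain of dynein-2. Dynlt1 and Dynlt3, which are alternative light chains of the Tctex family, moved in opposite directions. Dynlt1 read 5918, 6439.8, 6314 and 6584 at P1 and 1921, 1986, 2906 and 2825 at P21, a fall of 2.66-fold (-1.41 ± 0.15, adjusted p = 7.76e-05). Dynlt3 read 3868, 4381, 4308 and 4026 at P1 and 6789, 6476, 7088 and 6412 at P21, a rise of 1.61-fold (0.69 ± 0.09, adjusted p = 0.000219). Neither overlapped between the ages, and at P21 Dynlt1 fell into a lower pair (replicates 1 and 2) and a higher pair (replicates 3 and 4). Levels of different probe sets are not comparable, so the ratio of the 2 chains is not given.

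The LC8 chain gene Dynll2 rose on 1387782_at, from 4445 ± 276 at P1 to 5618 ± 299.7 at P21 (0.34 ± 0.09, adjusted p = 0.0139). That call was lost with centred arrays (0.277), and the probe set of highest mean read 8241, 7241, 8697 and 8226 at P1 and 8619, 8174, 8588 and 7869.8 at P21, with a change of 0.04 ± 0.09. The roadblock chain gene Dynlrb2, also a part of ciliary dynein, had a small rise (0.40 ± 0.13, adjusted p = 0.0381), reading 594, 532, 408 and 469.6 at P1 and 602, 623, 656 and 768 at P21. This rise was lost with the replicate block (0.0519), with centred arrays (0.116), without P1 replicate 3 (0.101) or 4 (0.0936) and without P21 replicate 2 (0.058), 3 (0.0692) or 4 (0.0962). Its relative Dynlrb1 had a change of 0.01 ± 0.11, with overlapping groups. A probe set annotated to the LC8 gene Dynll1 together with Dynll1l1, outside the rule, had a change of -0.04 ± 0.08. It was not called (adjusted p = 0.737).

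Dynein-2 drives cargo from the tip of the cilium back to its base. Of 4 tested probe sets with a Dync2 symbol 1 was called (25%, against 38.3% of all tested). The intermediate chain gene Dync2i2 (also known as Wdr34) fell from 1047 ± 77.7 at P1 to 471 ± 98.2 at P21 (-1.15 ± 0.14, 2.21-fold lower, adjusted p = 0.000214). On the arrays it read 1052, 948, 1051 and 1138 at P1 and 373, 416, 498 and 596 at P21, with no overlap. Dynlt2b, a light chain of the same motor, also fell, reading 1434, 1647, 1576 and 1633 at P1 and 705, 853, 1164 and 1161 at P21 (-0.72 ± 0.16, adjusted p = 0.00666). The heavy chain gene Dync2h1 did not pass (0.04 ± 0.11, 95% interval -0.20 to 0.29), nor did Dync2i1 (-0.06 ± 0.15) or Dync2li1 (0.35 ± 0.30), whose P1 values spread from 499.5 to 1548. Of 10 fixed genes of ciliated ependymal cells, 7 were on the array and 4 had a tested probe set, with 1 rise and 2 falls. Their summed intensity was 2162 to 2780.0 on the P1 arrays and 2635 to 2945 on the P21 arrays, and Rsph1, Spag16 and Tekt4 lay under the filter level on all 8 arrays.

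Mitotic kinesins, which work in dividing cells, are known to be low in most cells that have left the cell cycle. Of 13 probe sets for 10 genes, 7 did not pass the filter, with intensities of 5.58 to 234, and Kif2c, Kif14, Kif18a and Kif18b had no tested probe set. The filter level itself was 221 to 287 on the 8 arrays. Among the 6 tested, 1 for each of 6 genes, Kif22 rose, Kif23 fell and 4 were not called. The share called was 33.3%, against 38.3% of all tested, and the median change was -0.11. That median ran from -0.28 without P21 replicate 4 to -0.01 without P21 replicate 3. Kif22, a chromokinesin that pushes chromosome arms outward on the spindle, read 593, 529, 504 and 568 at P1 and 1186, 1166, 1372 and 1421 at P21. Every P21 value was above every P1 value, a rise of 2.3-fold (1.20 ± 0.10, adjusted p = 2.01e-05), and it was called under all 16 alternatives run. Kif23, the motor of the central spindle in cytokinesis, was called in the opposite direction and read 319, 448, 371 and 417 at P1 and 241, 194, 140.0 and 349.8 at P21 (-0.77 ± 0.23, adjusted p = 0.0268).

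The fall of Kif23 rested on few arrays. The ages overlapped, 3 of its 4 P21 intensities were under the filter level, and the call was lost when 1 array was left out, be it P1 replicate 2 (0.0614), P1 replicate 4 (0.0648), P21 replicate 2 (0.0714) or P21 replicate 3 (0.0524). Kif20a, which acts in cytokinesis, read 374, 424, 401 and 354 at P1 and 313, 307, 196 and 494 at P21. Kif15, a spindle motor also found in growing neurites, read 338, 302, 264 and 270.3 at P1 and 178, 227, 140.4 and 285 at P21. In both the highest P21 value was that of replicate 4. Their changes, -0.30 ± 0.22 for Kif20a and -0.51 ± 0.19 for Kif15, were not called. Without P21 replicate 4 both were called as falls, with adjusted p of 0.0413 and 0.0128, so that 3 of the 6 fell. Leaving out the highest P21 value lowers the P21 mean by itself. The P21 values then left for Kif15 and Kif23 were all under the filter level. Kif11, the main motor that separates spindle poles, read 277, 329.6, 163 and 122 at P1 and 296, 302, 151 and 174 at P21, a change of 0.08 ± 0.32. Kif20b, a kinesin of late mitosis, read 228, 346, 263 and 317 at P1 and 219, 279.8, 339 and 439 at P21, a change of 0.11 ± 0.20, and neither was called.

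P21 replicate 4 held the highest of the 4 P21 intensities in 5 of the 6 tested mitotic kinesins, and in 31.6% of all tested probe sets. With those not tested, it was highest in 6 of 13 mitotic kinesin probe sets and in 17 of 22 for 18 other genes of dividing cells, against 26.9% of all probe sets on the array. Among the P1 arrays replicate 2 was highest in 4 of the 6, 8 of the 13 and 14 of the 22, against 31.3% of all tested and 35.9% of all probe sets. Among the genes of dividing cells the proliferation marker Mki67 read 447, 469.8, 345 and 317 at P1 and 530.4, 334, 209 and 818 at P21, the topoisomerase gene Top2a 1191, 1034, 954 and 961 at P1 and 777, 677, 553 and 1207 at P21 and the kinase gene Cdk1 679, 618, 677 and 616 at P1 and 263, 214, 230.2 and 436 at P21. The summed intensity of those genes (1 tested probe set a gene) was 6175 to 8098 on the P1 arrays and 5665 to 8421 on the P21 arrays. Of their 13 tested probe sets 0 rose and 3 fell (Cdk1, Birc5 and Prc1; 23.1%, against 17.4% of all tested), with a median change of 0.10. Bub1b, Ccna2, Cenpe and Plk1 were under the filter level on all 8 arrays. Among the P21 arrays replicate 1 was highest in 2 of the 22, Cenpf and a probe set of Nusap1, and replicate 2 in 3. Aurkb, one of those 3, read 1341, 1575, 655 and 892 at P1 and 1927, 2170, 1433 and 1583 at P21. Its change of 0.73 ± 0.26 was not called (adjusted p = 0.0515). Kif22 read 1186, 1166 and 1372 on P21 replicates 1 to 3, so its rise did not rest on replicate 4.

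**Figure D3:**
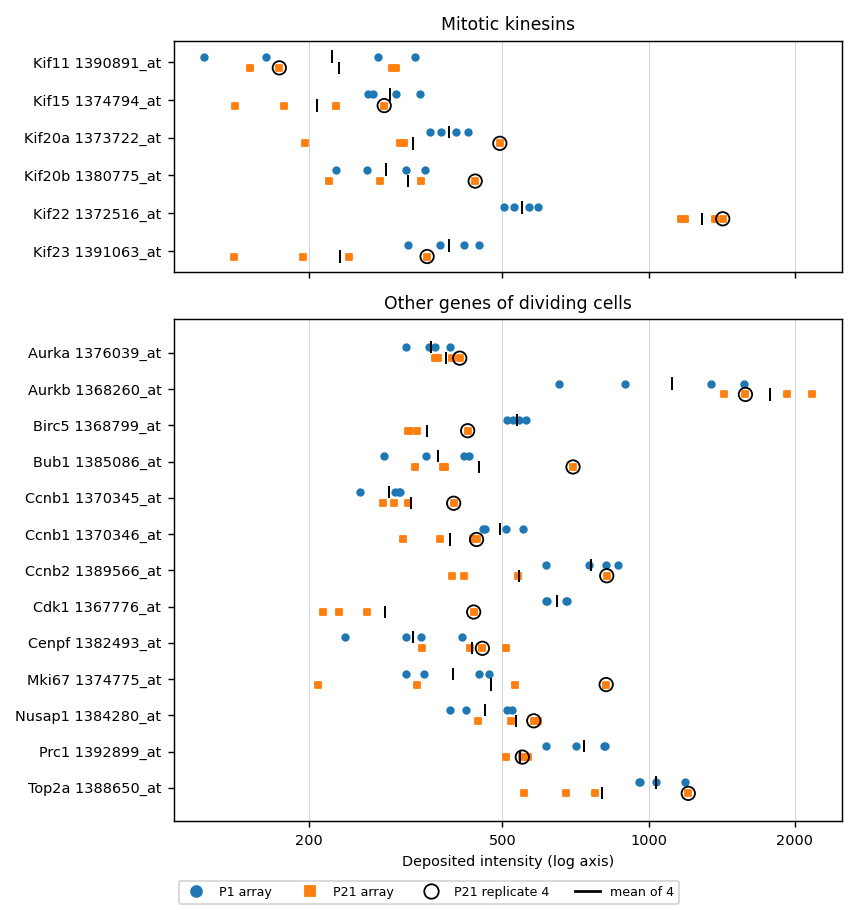
Deposited intensity (log axis) of the 6 tested mitotic kinesins (top) and of 13 probe sets for other genes of dividing cells (bottom), for P1 arrays (circles) and P21 arrays (squares), with the mean of 4 as a bar and P21 replicate 4 ringed. The ringed array is the highest of its age in 5 of the 6 kinesins, and Kif22 is the kinesin whose P21 values all lie above its P1 values.

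The promoters of Kif22 and Kif23 are shown side by side because these mitotic kinesins were called in opposite directions. Both are windows from 250 bases before to 50 after the RefSeq start, 5′ to 3′, Kif22 at chr1:191080829-191081128, minus strand and Kif23 at chr8:71320535-71320834, minus strand, GRCr8. Capitals mark CCAAT, and TTTGAA, letters of the cell cycle homology element of genes used in late cell cycle, on either strand, so that they also appear as ATTGG and TTCAAA.
Kif22: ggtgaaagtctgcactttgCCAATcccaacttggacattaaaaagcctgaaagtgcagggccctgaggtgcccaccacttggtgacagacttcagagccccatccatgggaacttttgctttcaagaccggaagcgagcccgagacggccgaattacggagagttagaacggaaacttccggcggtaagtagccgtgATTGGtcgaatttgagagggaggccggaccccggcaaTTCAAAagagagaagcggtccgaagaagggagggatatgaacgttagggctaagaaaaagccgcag
Kif23: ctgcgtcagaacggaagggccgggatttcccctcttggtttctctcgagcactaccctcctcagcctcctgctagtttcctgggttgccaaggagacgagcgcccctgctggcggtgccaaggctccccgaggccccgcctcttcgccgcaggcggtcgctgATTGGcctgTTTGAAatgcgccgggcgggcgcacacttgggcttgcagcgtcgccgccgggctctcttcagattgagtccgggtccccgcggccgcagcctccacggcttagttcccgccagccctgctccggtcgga
Both windows held both motifs. Kif22 had CCAAT at 231 and 53 bases and TTTGAA at 16 bases before the start, and Kif23 had them 88 and 79 bases before it. Of 9 mitotic kinesins with a promoter in the table, CCAAT was in 5 and TTTGAA in 4, and of 11 transport kinesins CCAAT was in 3 and TTTGAA in 0, against 37.5% and 18.3% of all 33469 windows. A window without a match says only that these letters are not in it.

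For 12 motor genes more than 1 probe set was tested, and these did not always tell the same story. In 7 of the 12 some probe sets were called and some were not, against 42.6% of the 2494 genes of the array with at least 2 tested. The probe set of highest mean was the one not called in 6 of the 7 (Dync1li1, Dynll2, Kif16b, Kif1a, Kif3a and Kif5a), and in 46.8% of such genes over the whole array. All 6 calls on the other probe sets were rises, and the share of rises among such calls over the whole array was not computed. The calls of Dync1li1, Dynll2, Kif3a and Kif5a were lost with centred arrays. That of Kif16b had every P1 value under the filter level. In the main fit, before any alternative, no motor gene had probe sets called in opposite directions. With the replicate block Kif3a had such calls. Its probe set of highest mean was called a fall (adjusted p = 0.0471), while its other tested probe set remained called a rise. Probe sets of 1 gene can read different transcript ends, and the amplification was primed at the poly(A) tail, but where each probe set lies was not analysed here.

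**Figure D4:**
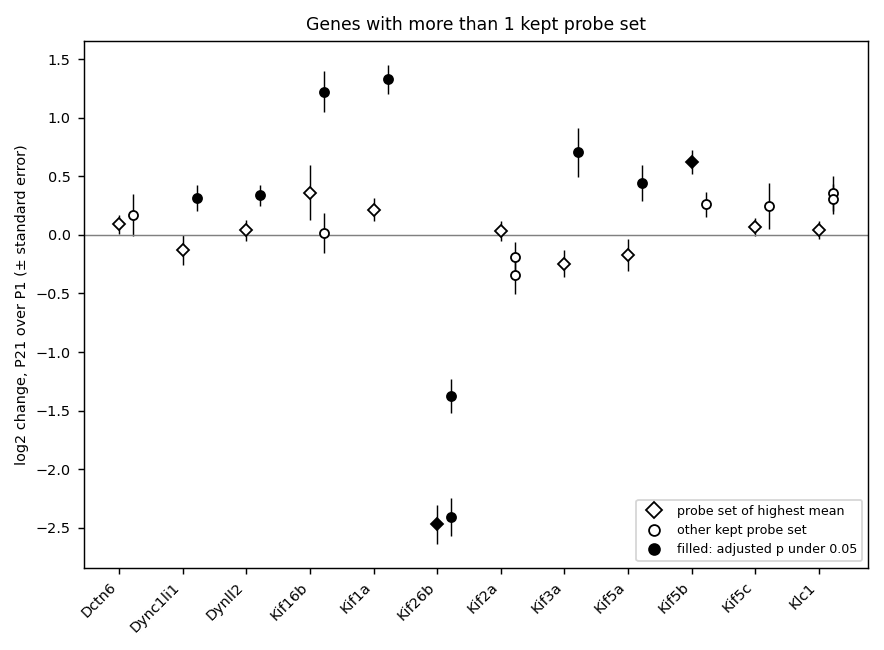
The log2 change, P21 over P1, with its standard error for each tested probe set of the 12 motor genes with more than 1, with the probe set of highest mean as a diamond, the others as circles, and filled points passing limma's test (adjusted p under 0.05). In Kif26b all 3 fell, while in Kif1a, Kif3a and Kif5a the filled circle lies above an open diamond.

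Of 46 fixed genes for adaptors, subunits and regulators, 42 were on the array, and of 56 tested probe sets for 38 genes 7 rose and 7 fell, each 12.5%, against 20.8% and 17.4% of all tested, and 42 were not called, with a median change of -0.02. The largest fall was that of Hap1, the huntingtin-associated protein that links cargo to dynactin and kinesin-1, from 5109 ± 202 at P1 to 2050.4 ± 349 at P21 (-1.33 ± 0.13, adjusted p = 4.68e-05). Kifc2, a neuronal kinesin with its motor at the other end of the chain, fell from 2645 ± 377 at P1 to 1303 ± 202 at P21 (-1.02 ± 0.14). Hook1, an adaptor of dynein, fell by 0.98 on the log2 scale (adjusted p = 0.0216), a call lost on leaving out any of P1 replicate 2 (0.0513), P1 replicate 4 (0.0605), P21 replicate 1 (0.0584) and P21 replicate 2 (0.0591). The largest rises were those of Ninl (0.66 ± 0.18), of Htt, the huntingtin gene, on 1 of 3 tested probe sets (0.65 ± 0.15), and of the dynein regulator Nde1 (0.48 ± 0.09). Ninl was not called with quantile normalization (adjusted p = 0.0502). Ninl and Nde1 were each above the filter level on only 1 P1 array, and Hook1 on only 1 P21 array. The accessory subunit of kinesin-2, Kifap3, rose on 1 of 3 tested probe sets (0.29 ± 0.10, adjusted p = 0.0362), and the other 2 had changes of -0.18 ± 0.10 and 0.16 ± 0.08.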

How the data were processed

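Motoneurons were captured by laser from lumbar cord of 4 litters, and about 50 ng of RNA a pool was amplified in 2 rounds from poly(A) primers before hybridisation to Affymetrix RAE230 2.0 arrays, per the labels' protocols and the design text. The authors deposited 1 table of linear intensities, 66 to 250 of them below 0 on an array, with array medians of 323 to 416. The sources used here do not say how the probes were summarised and normalized. Depth is not defined for arrays, and 4 arrays an age limit the precision.

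Negative intensities were taken as 0, and limma 3.58.1 in R 4.3.3 (lmFit and eBayes) was run on log2(intensity + 16) over all 8 arrays without a covariate. A probe set was kept if on at least 4 arrays it was above that array's 40th percentile (19155 of 31042). Fits were tested on simulated data. Where all 4 intensities of an age lay under that level, only a bound is printed ("at least"), which sets the mean log2 value of the brighter age against that percentile, averaged over the arrays of the dimmer age. Alternatives were other pseudocounts, filters, scalings, array weights, a replicate block, single arrays left out (with the same kept probe sets) and 1 value a gene.

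Symbols came from the platform's annotation, and all 52 genes were found by identifier in RefSeq's GRCr8 table with the same symbol. No symbol is Dynl directly followed by a digit, so letters between were allowed. Promoters are RefSeq's, for 44 of the 52 genes. Members, classes and lists were chosen with earlier results of these data known. Named with values are the called members, fixed motor genes and, of the partners, the 3 largest called rises and falls; Kifap3 and the dividing-cell genes were added after their values were seen.

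After each age's mean was subtracted, the 2 arrays that share a number correlated at 0.515 (number 1), 0.321 (number 2), 0.558 (number 3) and 0.150 (number 4), each over 0.1. Arrays of different numbers correlated at -0.46 to 0.37. The highest of these, P1 replicate 4 with P21 replicate 3, was above numbers 2 and 4, so the pairing is not established. The design text splits litters between the ages, and the numbers were taken as pairs in the replicate block only. The arrays of an age correlated at 0.958 to 0.986.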

Additional observations from a re-analysis of the deposited data

Results flagged for a closer look

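In Kif1c, P1 replicate 4 read 374, apart from the other 3 P1 arrays (498 to 518), its gap being 0.879 of the range of the 4 values on the log2 scale. Of 90 sets of 4 values examined this was the 1 with such a gap. By chance about 1 in 20 sets has one, so 1 in 90 is below the rate that chance gives.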

How the results depend on the processing

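Of 990 comparisons of tested motor probe sets with their values under an alternative, 944 left the call as it was, 34 lost one, 12 gained one and 0 reversed one. The motor probe sets called under every alternative that tested them were 15 of 21. Among 19155 probe sets, 7329 were called, and 4486 with 1 probe set a gene or 4523 with the mean of a gene's probe sets, both over fewer features. With the replicate block 8805 were called, and the motors had 11 rises and 11 falls; beyond Dynlrb2, Kif3a 1378509_at and Kif2a 1392532_at it changed no motor call. Motor rises were 7 with centred arrays and 6 with 1 probe set a gene, and transport kinesin rises 3 with the latter. Mitotic falls were 0 with no filter or a 60th percentile filter and 2 with centred arrays or quantile normalization, and 0 to 3 with single arrays left out. Rises of dynein and dynactin were 2 with no filter, 1 with centred arrays, 2 with either value a gene, and 2 to 4 with arrays left out. The median change of transport kinesins was 0.11 with centred arrays, 0.14 with quantile normalization, 0.054 with 1 probe set a gene, 0.19 with the mean of them, and 0.17 to 0.27 with arrays left out. That of mitotic kinesins was 1.20 with the 60th percentile filter, which keeps 1 of them, -0.30 with no filter, -0.25 with centred arrays, -0.23 with quantile normalization, and -0.28 to -0.01 with arrays left out. Other causes were not tested.

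Without a filter, which adjusts over more probe sets, the calls of Kif23 (adjusted p = 0.0521), Dynlrb2 (0.0741), Kif5a 1375875_at (0.0876) and Dync1li1 (0.0908) were lost, and that of Kif5a also with quantile normalization (0.0968). Without a filter all 28 transport kinesin probe sets were tested and 8 rose, against 7 of 19 with it. Those 8 include probe sets that the filter had removed, which are not named here. Among the 63 probe sets that passed the filter, gained calls not given above were falls of Dynlt5 and Kif15. Their adjusted p was 0.0158 and 0.0119 with centred arrays, and 0.00882 and 0.0141 with quantile normalization. Intensities near the filter level, as for most mitotic kinesins, limit what can be seen.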
